A study of Mus musculus with 22 samples.

Results

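The left ventricle of mouse embryos with a conditional knockout of Prdm16 (cKO) was compared with the left ventricle of control embryos at E13.5, mid-gestation. The libraries were chosen by their labels: 4 cKO and 4 control libraries of isolated left ventricle, 8 of the 22 libraries of the series, which also holds whole hearts and right ventricles. The labels give C57BL/6 as the strain of all the libraries, and the control libraries are titled WT, carry the label Mock for genetic manipulation and are described as littermate controls. The allele that was deleted, the Cre line that deleted it and the cells in which it acted are not given in the sources used here. Each library is polyadenylated RNA of a whole ventricle, so reads came from all its cell types, and fewer cells of a type and less RNA per cell cannot be told apart.

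The product of Prdm16 is a DNA-binding regulator of the PRDM family, best known for its part in brown fat and in blood stem cells. Its loss in patients has been linked to left ventricular non-compaction, a cardiomyopathy with a thin compact wall. The embryonic ventricle has an inner layer of trabeculae, which express natriuretic peptides and genes of the fast conduction system, and an outer compact wall, in which cardiomyocytes divide and later form most of the muscle mass. Hey2 and Mycn mark the compact wall, and Nppa and Gja5 the trabeculae.

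The 8 libraries held 14508722 to 22830716 estimated reads. In the first principal component of the 1000 most variable genes (40.6% of their variance) the cKO libraries lay on one side and the controls on the other. The second component (18.9%) set cKO libraries 1 and 3 apart from the other 6, and its leading features were mostly pseudogenes and predicted transcripts. Counts that lead a comparison were therefore also computed without cKO libraries 1 and 3 and without cKO libraries 2 and 4, a choice made after seeing the data. All 8 markers of ventricular cardiomyocytes were present, as the tissue label says, with 39290 to 45910 TPM in sum in the cKO and 49690 to 52650 TPM in the controls, where TPM is a level per transcript length and library size. Markers of other cells were also present: endothelial and endocardial markers summed to 402.7 to 453.9 TPM in the cKO and 331.7 to 344.5 TPM in the controls, epicardial markers to 114.6 to 133.5 and 82.2 to 93.6 TPM, and atrial cardiomyocyte markers to 4713 to 5559 and 3248 to 3497 TPM. These sums did not overlap between the groups, while those of mesenchyme and valve, smooth muscle and erythroid markers did. Nearly all of the atrial sum was Myl4 and Myl7. The atrial markers Sln, Nr2f1 and Kcna5 stayed at 5.06 TPM or less and were not called. Whether the samples held atrial cells was not tested. All 4 skeletal muscle markers and both lung markers stayed below 1 TPM in every library. Haemoglobin genes took 2.28% ± 0.808 of the reads in the cKO and 1.45% ± 0.383 in the controls (exact permutation test, two-sided, p = 0.143; ± is the SD over 4 libraries here and below), and genes of the mitochondrial genome 5.70% ± 0.246 and 6.63% ± 0.258 (p = 0.0286, the smallest that 4 against 4 libraries can give).

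Prdm16 (ENSMUSG00000039410.16; chromosome 4, 154316125 to 154636873, GRCm38) was measured first, since it checks the labels. Its level was 5.75, 3.78, 4.64 and 3.04 TPM in cKO libraries 1 to 4 and 5.37, 8.69, 7.98 and 7.63 TPM in control libraries 1 to 4. The highest cKO library lay above the lowest control in TPM, while the read counts of the 2 groups did not overlap. In the counts Prdm16 fell in the cKO (-1.19 ± 0.068 (SE) on the log2 scale, adjusted p = 3.22e-07; edgeR quasi-likelihood test with Benjamini-Hochberg adjustment, as for all adjusted p here; values in parentheses after a gene are log2 fold changes, cKO over control). The counts cover all exons and all cells of the ventricle, so deleted and other parts of the gene, and cells with and without the deletion, cannot be told apart. Among the 13 tested genes of the PRDM and FOG families, 1 was higher and 2 were lower: Zfpm1, which encodes the GATA cofactor FOG-1, rose (0.18, adjusted p = 0.00517), and Prdm9, a histone methyltransferase of the germ line, was lower (-0.33, adjusted p = 0.0408), a call lost under 16 of 24 alternatives. The call of Zfpm1 was lost under 6 of 24. Mecom, the closest relative of Prdm16, had a log2 fold change of 0.22 (adjusted p = 0.0746).

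Of 15832 genes tested, 4626 (29.2%) were called at an adjusted p below 0.05, 2299 higher in the cKO (14.5%) and 2327 lower (14.7%). Most differences were small: the median size among called genes was 0.33 (log2) for genes that rose and 0.29 for genes that fell. Beyond 1 on the log2 scale 240 called genes were higher and 138 lower, and beyond 2 there were 57 and 16. For 29.9% of the genes tested the counts of the 2 groups did not overlap, 14.8% with the cKO higher and 15.1% with the cKO lower. Of the protein-coding genes, 32.1% were called, and this share is the background for the gene lists below, whose counts are read against it and carry no test of their own. The share called rose with the mean level. In the lowest quartile of level 7.9% of genes were higher and 5.35% lower, and in the highest 20.2% and 22.9%. For lists of abundant genes this background is therefore low. The median log2 fold change of all genes was 0.0024. The count was 3037 without cKO libraries 2 and 4 and 3466 without cKO libraries 1 and 3. On length-scaled counts, which also take up differences between libraries in the estimated transcript lengths, 2510 genes were called (1282 higher, 1228 lower), and on log2(TPM + 1) 2380 (1570 higher, 66.0% of the calls, against 49.7% in the counts).

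**Figure D1:**
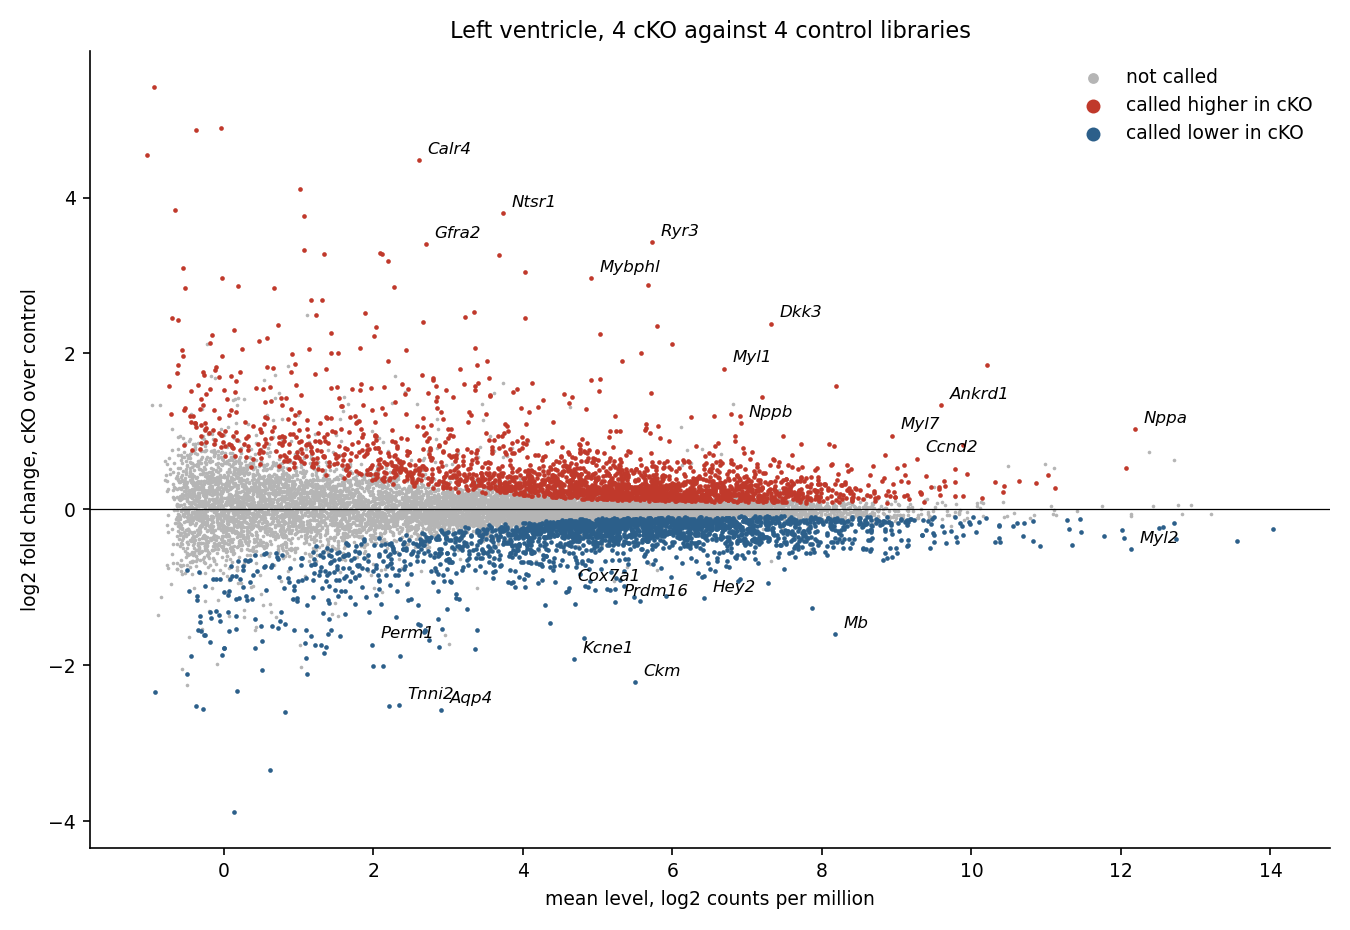
Mean level (x axis, log2 CPM) against the log2 fold change of cKO over control (y axis) for the 15832 genes tested in the left ventricle; 2299 genes called higher are red, 2327 called lower are blue and the rest grey. The called genes lie about evenly above and below 0, with Calr4, Ntsr1, Ryr3, Gfra2 and Mybphl at the top and Aqp4, Tnni2 and Ckm at the bottom among the labelled genes.

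The sequences before the transcription start of 6 genes are shown because they belong to chamber and energy genes that the results below turn on and for which a promoter sequence was at hand: Mybphl, Nppa and Myl7, which rose, and Hey2, Ckm and Perm1, which fell. Each is the 250 bases before the start, 5′ to 3′ on the gene's strand, from RefSeq (GRCm38.p6): Mybphl chr3:108364661-108364910 (plus strand), Nppa chr4:148000472-148000721 (plus), Myl7 chr11:5898783-5899032 (minus), Hey2 chr10:30842784-30843033 (minus), Ckm chr7:19410844-19411093 (plus) and Perm1 chr4:156215677-156215926 (plus). Capitals mark matches to the letters of 7 motifs, searched on both strands, which are given after the sequences. No matches overlapped in these 6 sequences.
Mybphl: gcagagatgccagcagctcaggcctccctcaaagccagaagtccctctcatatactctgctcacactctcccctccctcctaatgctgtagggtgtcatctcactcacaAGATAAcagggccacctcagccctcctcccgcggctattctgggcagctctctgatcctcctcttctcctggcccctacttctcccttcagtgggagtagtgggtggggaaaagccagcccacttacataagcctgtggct
Nppa: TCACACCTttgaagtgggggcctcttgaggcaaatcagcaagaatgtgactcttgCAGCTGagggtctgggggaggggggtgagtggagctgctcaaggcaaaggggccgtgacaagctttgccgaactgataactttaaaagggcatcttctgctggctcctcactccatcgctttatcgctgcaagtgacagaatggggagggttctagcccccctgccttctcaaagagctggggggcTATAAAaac
Myl7: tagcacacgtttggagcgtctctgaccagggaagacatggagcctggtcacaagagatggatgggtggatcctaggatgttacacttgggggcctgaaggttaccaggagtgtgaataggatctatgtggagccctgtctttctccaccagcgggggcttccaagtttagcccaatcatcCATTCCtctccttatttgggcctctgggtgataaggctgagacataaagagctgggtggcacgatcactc
Hey2: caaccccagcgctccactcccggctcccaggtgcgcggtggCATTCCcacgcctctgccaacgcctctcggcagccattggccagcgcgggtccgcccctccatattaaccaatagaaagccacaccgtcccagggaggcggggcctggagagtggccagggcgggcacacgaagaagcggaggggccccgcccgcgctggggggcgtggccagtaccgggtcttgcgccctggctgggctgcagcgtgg
Ckm: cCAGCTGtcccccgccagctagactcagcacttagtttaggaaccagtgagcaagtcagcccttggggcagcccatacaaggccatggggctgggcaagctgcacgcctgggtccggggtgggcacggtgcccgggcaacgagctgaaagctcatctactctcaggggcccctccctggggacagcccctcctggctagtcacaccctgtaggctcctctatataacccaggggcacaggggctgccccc
Perm1: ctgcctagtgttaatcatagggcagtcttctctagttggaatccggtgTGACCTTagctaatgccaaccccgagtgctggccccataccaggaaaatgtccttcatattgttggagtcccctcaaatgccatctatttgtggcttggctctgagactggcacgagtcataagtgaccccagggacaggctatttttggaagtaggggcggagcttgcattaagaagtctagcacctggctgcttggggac

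In the Mybphl sequence the match was GATA, 141 bases before the start. In Nppa the matches were T-box at 250 bases, muscle E-box at 195 and TATA at 9. Myl7 held a TEAD match 70 bases before the start and Hey2 one at 209, Ckm a muscle E-box at 249, and Perm1 an ERR half-site at 202. Such letters are common. Over the 14451 promoters of 11333 tested genes with a sequence, 1.96% held the letters AGGTGTNA, bound by T-box factors such as Tbx5, and 2.87% the MEF2 motif. The half-site AAGGTCA of estrogen-related receptors such as Esrra was in 2.82% of them. The GATA letters AGATAA were found in 6.23%, and the letters CATTCC of TEAD factors, the partners of YAP, in 11.0%. The muscle E-box CAGCTG, a site of myogenic helix-loop-helix factors, occurred in 12.2%, and the TATA letters TATAAA, a core promoter element, in 6.89%. Among promoters of genes called higher the shares were 1.45%, 2.68%, 2.50%, 6.23%, 13.1%, 12.8% and 7.64% in the same order, and among those of genes called lower 2.09%, 3.66%, 3.70%, 5.53%, 10.4%, 13.3% and 6.70%. A match describes letters only and is not evidence of a bound factor.

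Genes of the compact wall moved in both directions. Of 8 tested, 3 fell and 1 rose (median -0.11). Hey2, a Hairy-related repressor of the compact wall, (ENSMUSG00000019789.9; chromosome 10, 30832359 to 30842801) was at 31.2, 27.6, 25.2 and 24.9 TPM in the cKO libraries and 57.9, 59.8, 57.5 and 58.4 TPM in the controls. The groups were far apart, with no cKO library above 31.2 TPM and no control below 57.5 TPM (-1.14 ± 0.046 (SE), adjusted p = 3.36e-08). Mycn, a growth-promoting factor needed for the wall, was at 10.4, 11.4, 9.63 and 11.2 TPM in the cKO and 16.4, 19.2, 16.8 and 16.4 TPM in the controls, again without overlap (-0.81 ± 0.049 (SE), adjusted p = 5.09e-07). Hopx, a homeodomain-only cofactor, fell by less (-0.26, adjusted p = 0.00147), and Tnnt1, the slow skeletal troponin T, rose (0.70, adjusted p = 9.94e-07). Nkx2-5 and Tbx20, cardiac transcription factors, had log2 fold changes of 0.12 and -0.11 and did not pass the test (adjusted p = 0.236 and 0.111).

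Atrial genes rose. Of 19 genes on the atrial cardiomyocyte list, 14 were higher and none lower (median 0.44; 14.5% of all genes were higher), and the list's median level relative to the control mean ran from 0.46 to 0.54 in the cKO libraries and -0.077 to 0.18 in the control libraries. Mybphl, a myosin binding protein of the atria and the conduction system, was at 55.7, 56.7, 51.9 and 55.8 TPM in the cKO and 6.60, 6.71, 6.22 and 7.65 TPM in the controls. It was 7.80 times higher (2.96 ± 0.06 (SE), adjusted p = 2.57e-10) and had the smallest p of all genes. Dkk3, a secreted protein of the Dickkopf family, was at 89.5, 92.0, 89.5 and 101 and 15.2, 19.4, 16.3 and 17.0 TPM (2.38 ± 0.07 (SE), adjusted p = 1.72e-09). Myl7, the atrial regulatory light chain of myosin, rose from 965 ± 134 to 1917 ± 254 TPM (0.95, adjusted p = 3.25e-05) and Myl4, the atrial essential light chain, from 2355 ± 143 to 3137 ± 189.7 TPM (0.34, adjusted p = 0.000342). Cacna2d2, a calcium channel subunit (1.44, adjusted p = 2.70e-07), Fgf12, an intracellular modulator of sodium channels (1.76, adjusted p = 0.0055), and Nr2f2, the factor COUP-TFII of atrial cells and of veins (0.36, adjusted p = 0.00932), rose too. Sln, which encodes sarcolipin and is the most atrial of these in mouse hearts, stood at 0.885 ± 0.830 TPM in the controls and did not pass the test (-0.64, adjusted p = 0.536), nor did Kcna5 (-0.21, adjusted p = 0.333).

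Ventricular genes fell. Of 12 on the list, 10 were lower, against 14.7% of all genes, and 1 was higher (median -0.48). Myl2, the ventricular regulatory light chain and the most abundant contractile transcript here, was at 18370, 20710, 19960 and 24780 TPM in the cKO and 26260, 28920, 28170 and 27240 TPM in the controls. No cKO library reached the lowest control, and the fall was moderate (-0.51 ± 0.047 (SE), adjusted p = 1.07e-05). On log2(TPM + 1) 7 of the 12 genes on the list were lower and none higher, and Myl2 was not called. Myl3, its essential partner, fell from 3602 ± 158 to 2688 ± 182 TPM (-0.47, adjusted p = 1.25e-05) and Myh7, the slow myosin heavy chain, from 3996 ± 190.0 to 3227 ± 82.0 TPM (-0.41, adjusted p = 3.28e-05). Pln, the inhibitor phospholamban of the calcium pump, fell from 809 ± 19.4 to 576 ± 13.9 TPM (-0.50, adjusted p = 1.50e-05) and Fhl2, a LIM protein of the sarcomere, from 128 ± 10.9 to 87.2 ± 6.10 TPM (-0.59, adjusted p = 5.70e-05). Kcne1, a subunit of the slow delayed rectifier channel, was at 10.6, 11.1, 9.92 and 15.0 TPM in the cKO against 40.6, 38.9, 40.5 and 43.5 TPM, and had the deepest fall on this list (-1.93 ± 0.12 (SE), adjusted p = 8.36e-07). The gene that rose was Irx5, an Iroquois factor of the repolarization gradient (0.30, adjusted p = 0.00568).

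Of 15 trabecular and conduction genes, 8 rose and 3 fell (median 0.28). Nppa, the atrial natriuretic peptide, was at 9412, 10770, 9089 and 9730 TPM in the cKO and 4824, 5171, 4169 and 3840 TPM in the controls. The groups did not overlap and the level was 2.04 times higher (1.03 ± 0.079 (SE), adjusted p = 2.84e-06). Nppb, the B-type peptide, rose from 154 ± 41.1 to 341 ± 64.3 TPM (1.10, adjusted p = 0.000782). Tbx5, a T-box factor that activates Nppa and is graded across the heart, was at 48.3, 48.0, 47.0 and 48.8 TPM in the cKO and 26.4, 28.9, 27.9 and 29.9 TPM in the controls, with little spread within either group (0.73 ± 0.037 (SE), adjusted p = 1.41e-07). Cpne5, a calcium-dependent membrane-binding copine (1.003, adjusted p = 0.000262), Ntm, an adhesion protein (1.19, adjusted p = 1.23e-07), and Nrg1, the endocardial ligand of trabecular growth (0.60, adjusted p = 0.0118), rose. Gja5, the connexin of trabeculae and the fast conduction system, was lower with overlapping groups (-0.22, adjusted p = 0.0109) and was not called under 7 of 24 alternatives, among them those without either pair of cKO libraries. Irx3, a factor of the same system, fell (-0.41, adjusted p = 0.000158). Kcne1, which is also on the ventricular list above, had the deepest fall of the trabecular and conduction genes (-1.93). Bmp10, a growth factor of trabecular cardiomyocytes, did not pass the test (0.18, adjusted p = 0.16). Around the peptides, 7 of 8 tested genes of the natriuretic system rose and none fell (median 0.75). They include both processing enzymes, Corin (0.62, adjusted p = 5.56e-05) and Furin (0.46, adjusted p = 6.69e-06). The others are the receptor of C-type peptide Npr2 (0.87, adjusted p = 9.46e-07), the clearance receptor Npr3 (0.52, adjusted p = 4.39e-05) and Mme, the peptidase neprilysin that degrades the peptides (0.93, adjusted p = 2.64e-05). The receptor Npr1 did not pass the test (0.11, adjusted p = 0.159).

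**Figure D2:**
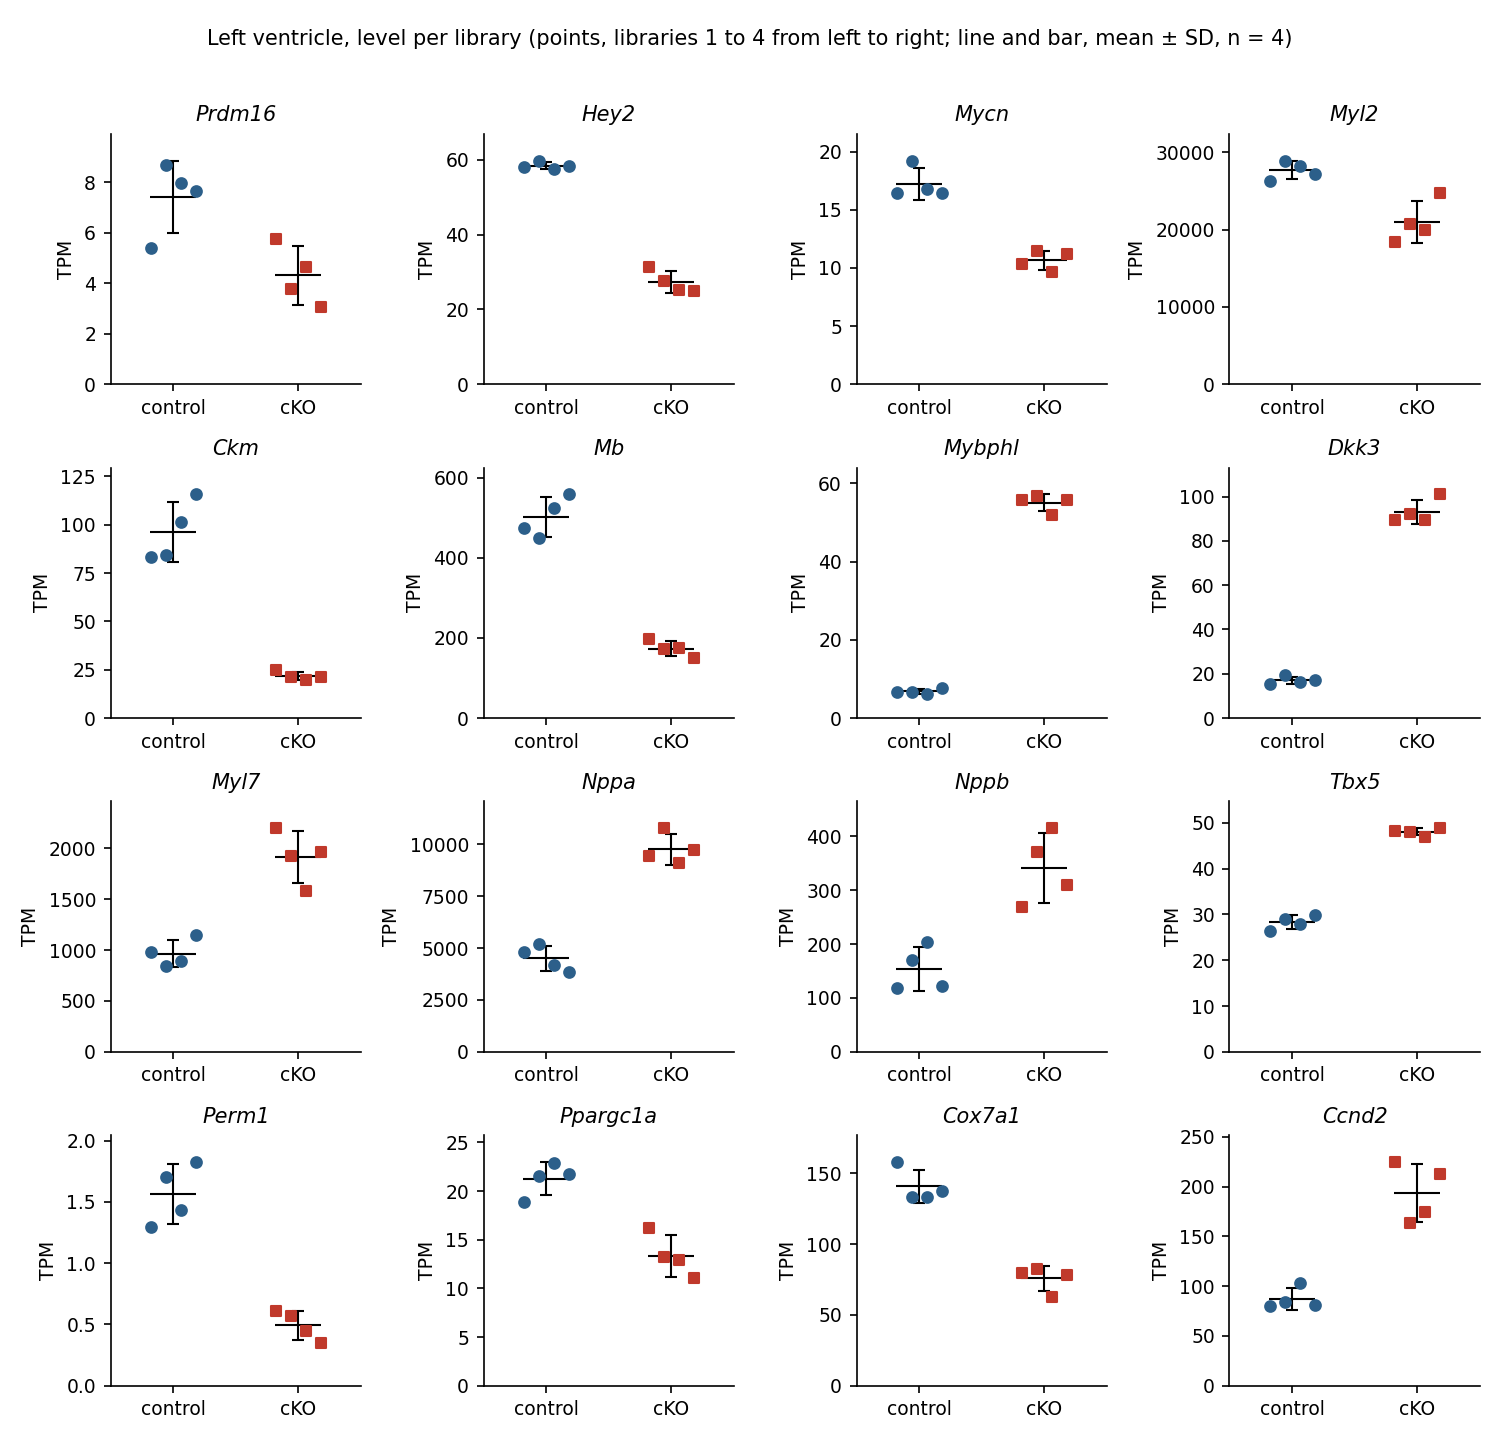
Level in TPM (y axis, from 0) of 16 genes in each left ventricle library; circles are controls, squares cKO, in the order of libraries 1 to 4, and the line and bar give the mean ± SD (n = 4). The groups are separate in every panel except that of Prdm16, where cKO library 1 (5.75 TPM) lies above control library 1 (5.37 TPM).

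Among 27 cardiac transcription factors, 6 rose and 8 fell, counts that were 3 and 6 without cKO libraries 2 and 4. Beside Tbx5, the largest rise of a factor without overlap was that of Gata5, a GATA factor of the endocardium and early heart (11.4, 11.5, 9.16 and 12.2 TPM in the cKO, 6.12, 6.04, 6.73 and 6.13 TPM in the controls; 0.73, adjusted p = 6.48e-06). Tbx2, a T-box repressor of the chamber programme that overlapped between groups (0.76, adjusted p = 0.0253; call lost under 10 of 24 alternatives), rose too, as did the Iroquois genes Irx1 (0.56, adjusted p = 0.00742), Irx5 and Irx6 (0.61, adjusted p = 0.0215). Irx5 lost its call under 6 of 24 alternatives and Irx6 under 8, among them, for Irx6, those without either pair of cKO libraries. Irx4, the ventricular Iroquois factor that represses atrial genes, fell from 35.4 ± 1.78 to 27.4 ± 2.03 TPM (-0.49, adjusted p = 4.52e-06), as did Gata6 (-0.24, adjusted p = 0.00811), Myocd, the cofactor of serum response factor (-0.34, adjusted p = 0.00101), and Smyd1, a muscle methyltransferase (-0.21, adjusted p = 0.00171). The call of Gata6 was lost under 5 of 24 alternatives. Gata4, Hand1 and Hand2, which shape the ventricles, differed by at most 0.12 on the log2 scale and did not pass the test (-0.033, adjusted p = 0.573, -0.10, adjusted p = 0.127 and 0.12, adjusted p = 0.106).

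Sarcomere genes split: of 49 tested, 21 fell and 13 rose (median -0.13), and on log2(TPM + 1) 12 fell and 12 rose. Most abundant thick and thin filament genes fell by a modest amount, among them Tnnt2 (-0.27, adjusted p = 0.000179), Tnnc1 (-0.42, adjusted p = 1.04e-05), Tnni3 (-0.39, adjusted p = 4.25e-05), Tnni1 (-0.34, adjusted p = 7.87e-05), Mybpc3 (-0.25, adjusted p = 0.000394) and Actn2 (-0.21, adjusted p = 0.0011), which encode troponin subunits, a myosin binding protein and the Z-disc protein actinin. Actc1, the cardiac actin, Myh6, the fast myosin heavy chain, and Tpm1, a tropomyosin, had log2 fold changes of 0.055, -0.016 and -0.055 and did not pass the test (adjusted p = 0.336, 0.845 and 0.361). Ankrd1, a stretch-responsive repeat protein of the sarcomere, rose from 294 ± 57.6 to 737 ± 104 TPM (1.34 ± 0.13 (SE), adjusted p = 1.43e-05), and Des, the intermediate filament desmin, rose as well (0.36, adjusted p = 0.000181). Lmod3, a nucleator of thin filaments, fell (-1.23, adjusted p = 1.48e-06), and so did Acta1 and Acta2, the skeletal and smooth muscle actins that embryonic cardiomyocytes also express (-0.62, adjusted p = 0.000138 and -0.65, adjusted p = 6.20e-07).

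Genes of fast skeletal muscle that the ventricle expresses went in opposite directions, 3 higher and 3 lower of 10. Myl1, the fast essential light chain, was at 355, 396, 319.5 and 492 TPM in the cKO and 78.5, 102, 106 and 106 TPM in the controls (1.81 ± 0.048 (SE), adjusted p = 8.29e-10). Tnni2, the fast troponin I, was at 5.92, 2.45, 2.64 and 2.45 and 18.4, 17.8, 13.9 and 16.2 TPM (-2.52 ± 0.25 (SE), adjusted p = 1.96e-05), so that Myl1 rose in each cKO library above every control while Tnni2 fell below every control. Mylpf, the fast regulatory light chain, was lower (-0.73, adjusted p = 0.0447), a call lost under 14 of 24 alternatives. The counts were 1 higher and 2 lower without control library 3, and the same without cKO libraries 2 and 4.

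Among 28 calcium handling genes, 7 rose and 6 fell, counts that were 4 and 4 without cKO libraries 2 and 4. The ryanodine receptors, which release calcium from the sarcoplasmic reticulum, changed in opposite directions. Ryr3, the minor form, was at 21.8, 21.1, 23.7 and 56.2 TPM in the cKO and 2.52, 2.67, 1.77 and 1.52 TPM in the controls. Library 4 was far above the other 3 cKO libraries in TPM, all of which exceeded every control (3.42 ± 0.097 (SE), adjusted p = 1.36e-09). Ryr2, the cardiac form, fell from 51.9 ± 0.937 to 43.2 ± 4.43 TPM (-0.30, adjusted p = 4.19e-05). Genes of proteins that store calcium in the reticulum rose: Casq1 (0.36, adjusted p = 0.0163), Casq2 (0.23, adjusted p = 0.0209), Hrc (0.55, adjusted p = 3.37e-05) and that of the chaperone Calr (0.29, adjusted p = 0.000178). The call of Casq2 was lost under 6 of 24 alternatives and that of Casq1 under 4. Jph2, which ties the reticulum to the cell membrane, fell (-0.18, adjusted p = 0.00926; call lost under 5 of 24 alternatives), and the calcium pump Atp2a2 did not pass the test (-0.054, adjusted p = 0.327).

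Ion channel genes moved by subunit. Both subunits of the slow delayed rectifier fell in the counts, Kcne1 as above and Kcnq1 (-0.95, adjusted p = 1.12e-05). The TPM of Kcnq1 overlapped between groups (5.97, 13.8, 7.61 and 9.37 in the cKO and 8.83, 12.5, 10.4 and 12.1 in the controls). Its call was lost on length-scaled counts and on both TPM scales. The subunits of the acetylcholine-gated channel of atrial cells rose, Kcnj3 (0.75, adjusted p = 0.000124) and Kcnj5 (0.41, adjusted p = 8.79e-05), and so did subunits of ATP-sensitive channels, Kcnj8 (1.16, adjusted p = 4.05e-05), Abcc8 (1.55, adjusted p = 7.74e-07) and Abcc9 (0.56, adjusted p = 1.05e-05). In all, 9 of 30 potassium channel genes rose and 5 fell. Of 22 sodium, calcium and pacemaker channel genes 5 rose and 6 fell. Scn10a, a sodium channel alpha subunit, was low at 0.639 ± 0.154 TPM in the controls and rose to 1.93 ± 0.109 (1.52, adjusted p = 8.83e-06), and Scn4b, a sodium channel beta subunit, fell from 0.519 ± 0.137 to 0.0540 ± 0.0230 TPM (-3.34, adjusted p = 1.42e-05). Cacna1c and Cacnb2, subunits of the L-type channel, fell slightly (-0.27, adjusted p = 0.00126 and -0.36, adjusted p = 0.00018). Genes of the intercalated disc, the junction between cardiomyocytes, moved both ways: of 31 connexin and adhesion genes 14 fell and 9 rose, and on log2(TPM + 1) 5 fell and 8 rose. The counts were 9 and 8 without cKO libraries 2 and 4. Gja1, the connexin of working myocardium, fell from 233 ± 12.1 to 171 ± 14.8 TPM (-0.49, adjusted p = 1.03e-05). Nrap, an actin anchor of the disc, fell from 41.5 ± 5.91 to 21.97 ± 1.89 TPM (-0.94, adjusted p = 6.34e-06), and Dsp and Pkp2, desmosomal proteins, by less (-0.29, adjusted p = 0.000434 and -0.24, adjusted p = 0.00155). Itga6, a laminin receptor (0.55, adjusted p = 1.62e-05), and Gja4, an endothelial connexin (0.77, adjusted p = 7.78e-06), rose.

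Genes of oxidative metabolism fell together. In the respiratory chain 33 of 37 nuclear genes of complex I, 14 of 14 of complexes II, III and cytochrome c, 13 of 16 of complex IV and 15 of 16 of ATP synthase were lower, where 14.7% of all genes were lower. The medians were -0.33, -0.41, -0.40 and -0.37. Each step was small but even: the median of the complex I list relative to the control mean ran from -0.37 to -0.33 in the cKO libraries and -0.042 to 0.081 in the control libraries. Ndufb8, an accessory subunit of complex I, was at 366, 372, 313 and 338 TPM in the cKO and 442, 421, 403 and 406 TPM in the controls (-0.40 ± 0.034 (SE), adjusted p = 5.73e-06). Sdha, the flavoprotein of complex II, fell from 273 ± 32.7 to 198 ± 16.9 TPM (-0.57, adjusted p = 5.77e-07). Cyc1, cytochrome c1 of complex III, fell from 538 ± 19.9 to 378 ± 42.4 TPM (-0.59, adjusted p = 3.76e-07) and Atp5b, the catalytic subunit of ATP synthase, from 2011 ± 188 to 1510 ± 101 TPM (-0.46, adjusted p = 3.60e-06).

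In complex IV the isoforms parted. Cox7a1, the heart and muscle form of subunit VIIa, was at 80.0, 82.7, 63.0 and 78.0 TPM in the cKO and 158, 134, 134 and 138 TPM in the controls (-1.01 ± 0.075 (SE), adjusted p = 2.33e-06). Cox8b, another muscle form, fell (-0.55, adjusted p = 0.000145), while Cox6a2, the muscle form of subunit VIa, rose from 206 ± 2.71 to 305 ± 18.9 TPM (0.45, adjusted p = 8.36e-07). Cox6a1, the ubiquitous form of the same subunit, fell (-0.49, adjusted p = 3.36e-06), a call lost on length-scaled counts and on both TPM scales. Cox4i2, a form tied to low oxygen, rose from a low level (3.70 ± 0.860 to 7.17 ± 2.06 TPM; 0.88, adjusted p = 0.0102). Of 13 protein genes of the mitochondrial genome 7 fell and none rose (median -0.22), among them mt-Co2 (-0.39, adjusted p = 2.64e-05), mt-Co1 (-0.25, adjusted p = 0.00311) and mt-Nd1 (-0.36, adjusted p = 0.00372). On log2(TPM + 1), and for a change beyond 1.2-fold, 1 of the 13 fell, and mt-Co1 and mt-Nd1 were not called. Protein genes of the mitochondrial ribosome, which translates these transcripts, fell in 44 of 61 cases and rose in none (median -0.21), Mrpl12 most clearly (-0.54, adjusted p = 1.08e-06). The count of the mitochondrial ribosome dropped to 20 on length-scaled counts and 27 without cKO libraries 2 and 4.

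Upstream of the chain, 29 of 31 genes of the citric acid cycle and of pyruvate entry were lower and 1 was higher (median -0.42). Idh2 (-0.36, adjusted p = 6.24e-06) and Mdh2 (-0.39, adjusted p = 1.07e-05) are enzymes of the cycle. Pdk2 (-0.61, adjusted p = 5.87e-05), Pdk3 (-0.69, adjusted p = 1.94e-06) and Pdk4 (-0.63, adjusted p = 4.32e-06) inhibit pyruvate dehydrogenase, so these members have the opposite role to most of the list, and they fell too. The gene that rose was Pcx, pyruvate carboxylase, which feeds the cycle (0.41, adjusted p = 0.000181). In fatty acid oxidation 27 of 34 genes fell and none rose (median -0.42). Acadm, a dehydrogenase for medium chains, was at 64.3, 78.0, 70.7 and 92.9 TPM in the cKO and 111, 98.6, 118 and 98.1 TPM in the controls (-0.64 ± 0.05 (SE), adjusted p = 3.13e-06). Eci1, an isomerase of unsaturated chains (-0.75, adjusted p = 2.70e-07), Acaa2, the last thiolase step (-0.68, adjusted p = 3.20e-06), Cpt1b, the muscle gate of entry into mitochondria (-0.56, adjusted p = 2.73e-07), and Fabp3, the heart fatty acid carrier (-0.55, adjusted p = 1.16e-05), also fell. In the order complex I, complexes II and III, complex IV, ATP synthase, citric acid cycle and fatty acid oxidation, the counts were 21, 10, 7, 11, 26 and 26 lower on log2(TPM + 1). For a change beyond 1.2-fold they were 15, 11, 11, 9, 23 and 20, and without cKO libraries 2 and 4 they were 32, 14, 13, 16, 28 and 26.

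Glycolysis and glycogen genes fell as well, 27 of 36, with 3 higher (median -0.21). Gys1, the muscle glycogen synthase (-0.55, adjusted p = 8.14e-06), Ldhb, the heart lactate dehydrogenase (-0.53, adjusted p = 7.52e-07), Pfkp (-0.50, adjusted p = 3.10e-05) and Pfkm (-0.45, adjusted p = 1.24e-05), forms of phosphofructokinase, and Aldoa, the muscle aldolase (-0.42, adjusted p = 8.17e-05), were lower. Aldoc, the brain aldolase (0.85, adjusted p = 8.79e-05), Ppp1r3c, a targeting subunit that promotes glycogen synthesis (0.44, adjusted p = 2.14e-05), and Pfkfb2, a cardiac activator of glycolysis (0.30, adjusted p = 0.00031), were higher. The list's lower count was 15 on length-scaled counts and 11 on log2(TPM + 1).

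Of 18 regulators of mitochondrial and fuel genes 11 fell and none rose, and 7 fell without either pair of cKO libraries. Ppargc1a, the coactivator PGC-1 alpha, was at 16.2, 13.2, 12.9 and 11.0 TPM in the cKO and 18.9, 21.6, 22.9 and 21.7 TPM in the controls (-0.85 ± 0.057 (SE), adjusted p = 1.005e-06). Its relative Ppargc1b (-0.71, adjusted p = 0.000358), the fatty acid sensor Ppara (-1.33, adjusted p = 0.000163) and the orphan receptor Esrra (-0.39, adjusted p = 2.03e-05) fell. Perm1, a muscle regulator that acts with these receptors and whose sequence is given above, was low, at 0.607, 0.568, 0.447 and 0.348 TPM in the cKO and 1.29, 1.71, 1.44 and 1.83 TPM in the controls, without overlap (-1.74 ± 0.18 (SE), adjusted p = 2.74e-05). Of the general factors for mitochondrial genes, Gabpa fell slightly (-0.15, adjusted p = 0.0213; 0.015 on log2(TPM + 1)), and Nrf1 (-0.032, adjusted p = 0.695) and Tfam (-0.13, adjusted p = 0.0659) did not pass the test.

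On the list of creatine kinases and myoglobin, of phosphate buffering and oxygen storage, 5 of 8 tested genes fell and none rose (median -0.29). Ckm and Mb lay far below that median. Ckm, the muscle creatine kinase, was at 24.8, 20.98, 19.9 and 21.4 TPM in the cKO and 83.1, 84.5, 102 and 116 TPM in the controls. It was 4.66 times lower, and no library came near the other group (-2.22 ± 0.11 (SE), adjusted p = 1.14e-07). Mb, myoglobin, was at 197, 172, 175 and 150.5 and 475, 449, 525 and 559 TPM (-1.60 ± 0.073 (SE), adjusted p = 6.85e-08). Ckmt2, the mitochondrial creatine kinase of muscle, fell (-1.09, adjusted p = 2.63e-05), while Ckb, the brain form, did not pass the test (0.027, adjusted p = 0.635). On a list of brown fat genes, a tissue in which Prdm16 has been studied, 7 of 11 tested fell and 2 rose, but this list shares Cox7a1, Cox8b, Fabp3, Kcnk3, Pdk4 and Ppargc1a with other lists.

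**Figure D3:**
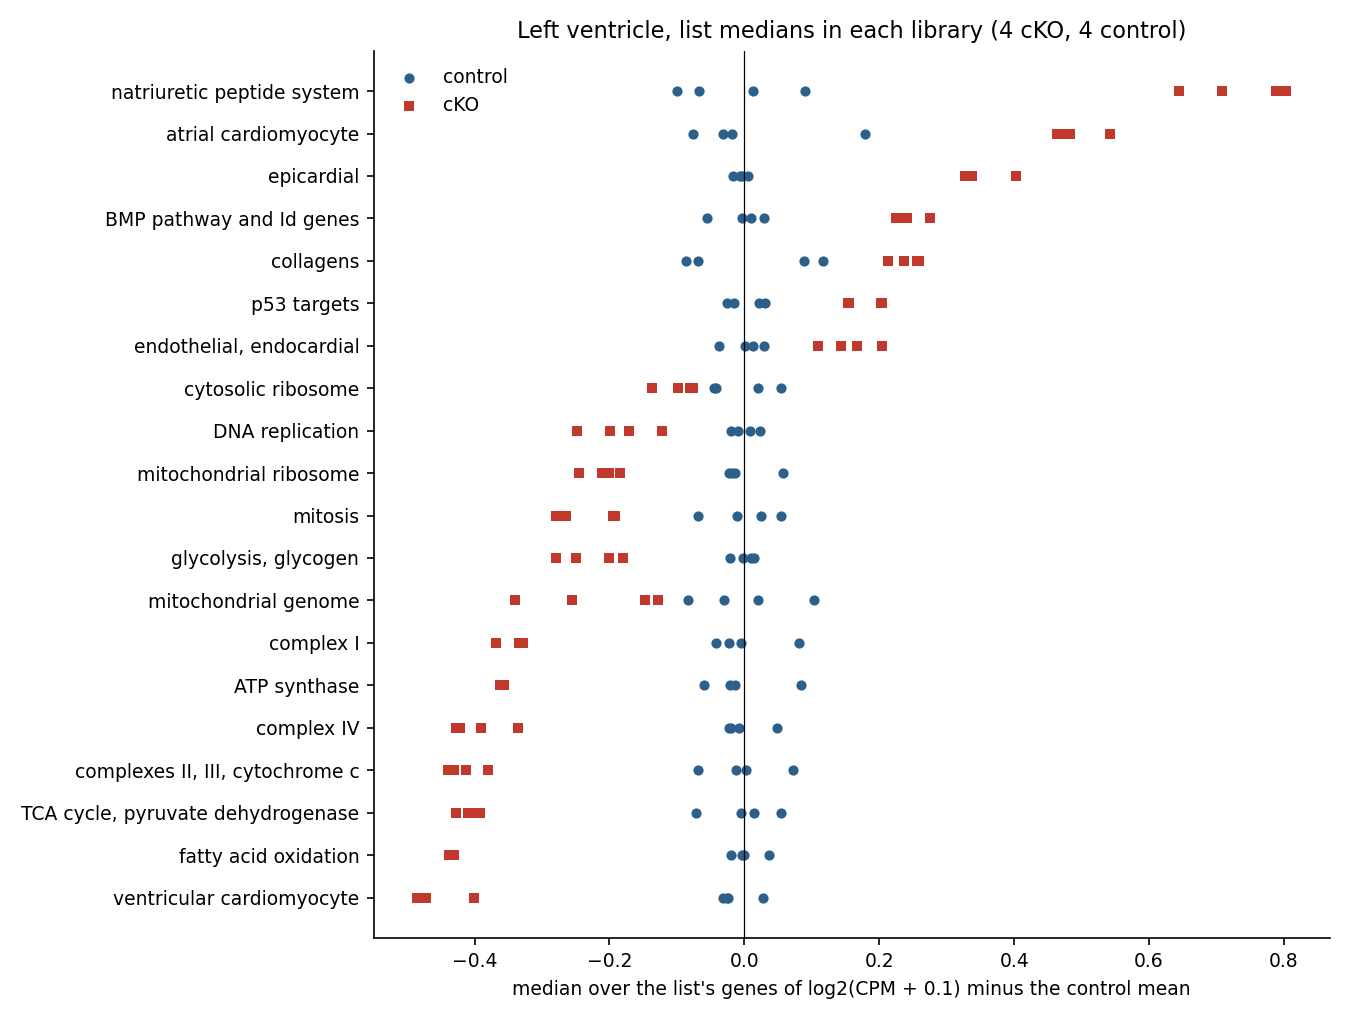
Median over each gene list (y axis) of log2(CPM + 0.1) minus the control mean (x axis) in each of the 8 left ventricle libraries, circles for controls and squares for cKO. For fatty acid oxidation the 4 cKO libraries lie between -0.44 and -0.43 and the controls between -0.019 and 0.037, and for the natriuretic system the cKO libraries lie between 0.64 and 0.80.

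Cell cycle genes fell by small, even steps. Of 45 mitosis genes 40 were lower and none higher (median -0.22), and of 45 DNA replication genes 26 were lower and none higher (median -0.18). Mki67, the proliferation marker, was at 45.1, 39.1, 40.7 and 34.9 TPM in the cKO and 50.9, 51.2, 50.6 and 47.1 TPM in the controls (-0.29 ± 0.037 (SE), adjusted p = 0.000105). Bub1b of the spindle checkpoint (-0.42, adjusted p = 2.84e-06), Birc5, survivin (-0.31, adjusted p = 0.000688), Kif11, a spindle motor (-0.32, adjusted p = 0.000118), Uhrf1, which maintains DNA methylation (-0.39, adjusted p = 1.24e-05), and Prim1, a primase subunit (-0.41, adjusted p = 1.83e-05), fell. In contrast Ccnd2, a D-type cyclin that drives entry into the cycle, was at 225, 164, 175 and 212 TPM in the cKO and 80.0, 83.6, 103 and 81.5 TPM in the controls (0.65 ± 0.033 (SE), adjusted p = 1.53e-07). The inhibitors Cdkn1c, p57 (0.43, adjusted p = 0.000252), and Cdkn1a, p21 (0.42, adjusted p = 0.00866), rose, and Ccnd1, the D-type cyclin on the compact wall list, did not pass the test (-0.0051, adjusted p = 0.941). Of 19 targets of p53 9 rose and 2 fell, with Eda2r (0.67, adjusted p = 0.00433), Trp53inp1 (0.42, adjusted p = 1.12e-05) and Zmat3 (0.38, adjusted p = 0.000146) among those that rose. The higher count was 4 without cKO libraries 2 and 4, where Eda2r and Cdkn1a were not called. The lower counts for mitosis and DNA replication were 26 and 14 on length-scaled counts and 10 and 9 on log2(TPM + 1), and 1 mitosis gene and 2 replication genes were called for a change beyond 1.2-fold. Protein genes of the cytosolic ribosome fell in 24 of 62 cases by at most 0.19 on the log2 scale, a count that was 6 without cKO libraries 2 and 4 and 0 on log2(TPM + 1) (limma trend test).

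In the BMP and TGF-beta pathways genes rose and none fell. For BMP signalling 15 of 30 genes rose (median 0.20). Among ligands Bmp4 (10.8 ± 9.51 to 30.9 ± 10.8 TPM; 0.79, adjusted p = 0.0018) and Bmp6 (0.43, adjusted p = 0.00481) rose and Bmp2 did not pass the test (-0.23, adjusted p = 0.664). The receptor Bmpr1b rose from a low level (0.487 ± 0.116 to 1.60 ± 0.341 TPM; 1.57, adjusted p = 0.000297). The antagonist Nog (1.59, adjusted p = 0.000976) and the inhibitory mediators Smad6 (0.46, adjusted p = 0.000106) and Smad7 (0.25, adjusted p = 0.0303; call lost under 11 of 24 alternatives) rose. So did the target genes Id1 (0.23, adjusted p = 0.00622), Id2 (0.64, adjusted p = 3.32e-06) and Id4 (1.25, adjusted p = 4.63e-06), so activators, inhibitors and targets were all among the genes that rose. In the TGF-beta pathway 9 of 25 rose, led by Fst, the activin antagonist follistatin (1.93 ± 0.482 to 7.64 ± 1.57 TPM; 1.68, adjusted p = 4.18e-07), with the ligands Tgfb2 (0.57, adjusted p = 0.000146) and Tgfb3 (0.46, adjusted p = 9.96e-05) and the matricellular target Ccn2 (0.94, adjusted p = 0.00489).

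Neuregulin, FGF, IGF, VEGF and PDGF genes moved in both directions, 10 higher and 9 lower of 34. Nrg2 (2.01, adjusted p = 7.61e-06), Nrg1 and their receptor Erbb4 (0.37, adjusted p = 0.000425) rose, and Erbb3 fell (-0.32, adjusted p = 0.0158). Erbb3 lost its call under 7 of 24 alternatives, among them those without either pair of cKO libraries, and Erbb4 under 4. Fgf9 (-0.56, adjusted p = 0.000442) and Fgf18 (1.25 ± 0.290 to 0.223 ± 0.0669 TPM; -2.52, adjusted p = 0.000181), both FGF ligands, fell, while Fgf1 (0.63, adjusted p = 0.00013), Fgf10 (1.53, adjusted p = 0.00183) and the receptor Fgfr1 (0.37, adjusted p = 0.000319) rose. Igfbp2 and Igfbp3, carriers of insulin-like growth factors, fell. Igfbp2 was at 22.3, 28.3, 19.8 and 23.8 TPM in the cKO and 51.3, 48.5, 42.8 and 45.3 TPM in the controls (-1.02 ± 0.075 (SE), adjusted p = 1.94e-06), and Igfbp3 fell from 17.0 ± 1.72 to 8.51 ± 1.92 TPM (-1.05, adjusted p = 7.24e-05). The vascular growth factors Vegfa (-0.36, adjusted p = 6.10e-05), Vegfb (-0.45, adjusted p = 2.44e-06) and Vegfc (-0.36, adjusted p = 0.00316) all fell.

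In the Wnt pathway 8 genes rose and 8 fell of 34, counts that were 3 and 7 without cKO libraries 2 and 4. Wnt5a, a ligand of the non-canonical branch, rose from 18.9 ± 1.38 to 39.1 ± 1.14 TPM (0.94, adjusted p = 6.28e-07), while its receptors Ror1 (9.64 ± 0.635 to 4.93 ± 0.159 TPM; -1.02, adjusted p = 1.96e-07) and Ror2 (-0.31, adjusted p = 0.00256) fell. Nkd2, an intracellular antagonist (-1.15, adjusted p = 7.41e-05), and Wnt4 (-0.63, adjusted p = 0.00311) fell, and Dkk2, another antagonist, rose from a low level (1.32, adjusted p = 0.0124). Axin2, a target of the canonical branch, did not pass the test (-0.11, adjusted p = 0.695). Of 23 Notch pathway genes 5 fell and 4 rose: beside Hey2, the ligand Jag1 (-0.44, adjusted p = 4.42e-05) and the feedback regulator Nrarp (-0.53, adjusted p = 0.00127) fell, and Notch1 (0.18, adjusted p = 0.00406) and Dll1 (0.31, adjusted p = 0.0273) rose. Dll1 lost its call under 10 of 24 alternatives and Notch1 under 4, as did Ror2 of the Wnt list. The higher count of the Notch list was 2 without cKO library 3 or without control library 2 and 1 on length-scaled counts. Guidance cues and their receptors were called in 15 cases higher and 8 lower of 38. Epha4, an ephrin receptor, was at 21.7, 17.1, 16.7 and 17.5 TPM in the cKO and 2.89, 3.47, 3.40 and 3.85 TPM in the controls (2.35 ± 0.084 (SE), adjusted p = 1.08e-08). Slit3, a ligand of Robo receptors (1.04, adjusted p = 2.73e-07), and Sema6d, a semaphorin of the developing ventricle (0.74, adjusted p = 1.53e-07), rose as well, and Sema3b (-0.84, adjusted p = 1.17e-05) and Ntn4 (-1.05, adjusted p = 0.000962) fell. Ntn4 lost its call under 4 of 24 alternatives, among them length-scaled counts and both TPM scales. Adm, adrenomedullin, rose most on a list of hypoxia genes (1.496, adjusted p = 1.20e-05), of which 4 rose and 9 fell of 24 (3 fell on log2(TPM + 1)).

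**Figure D4:**
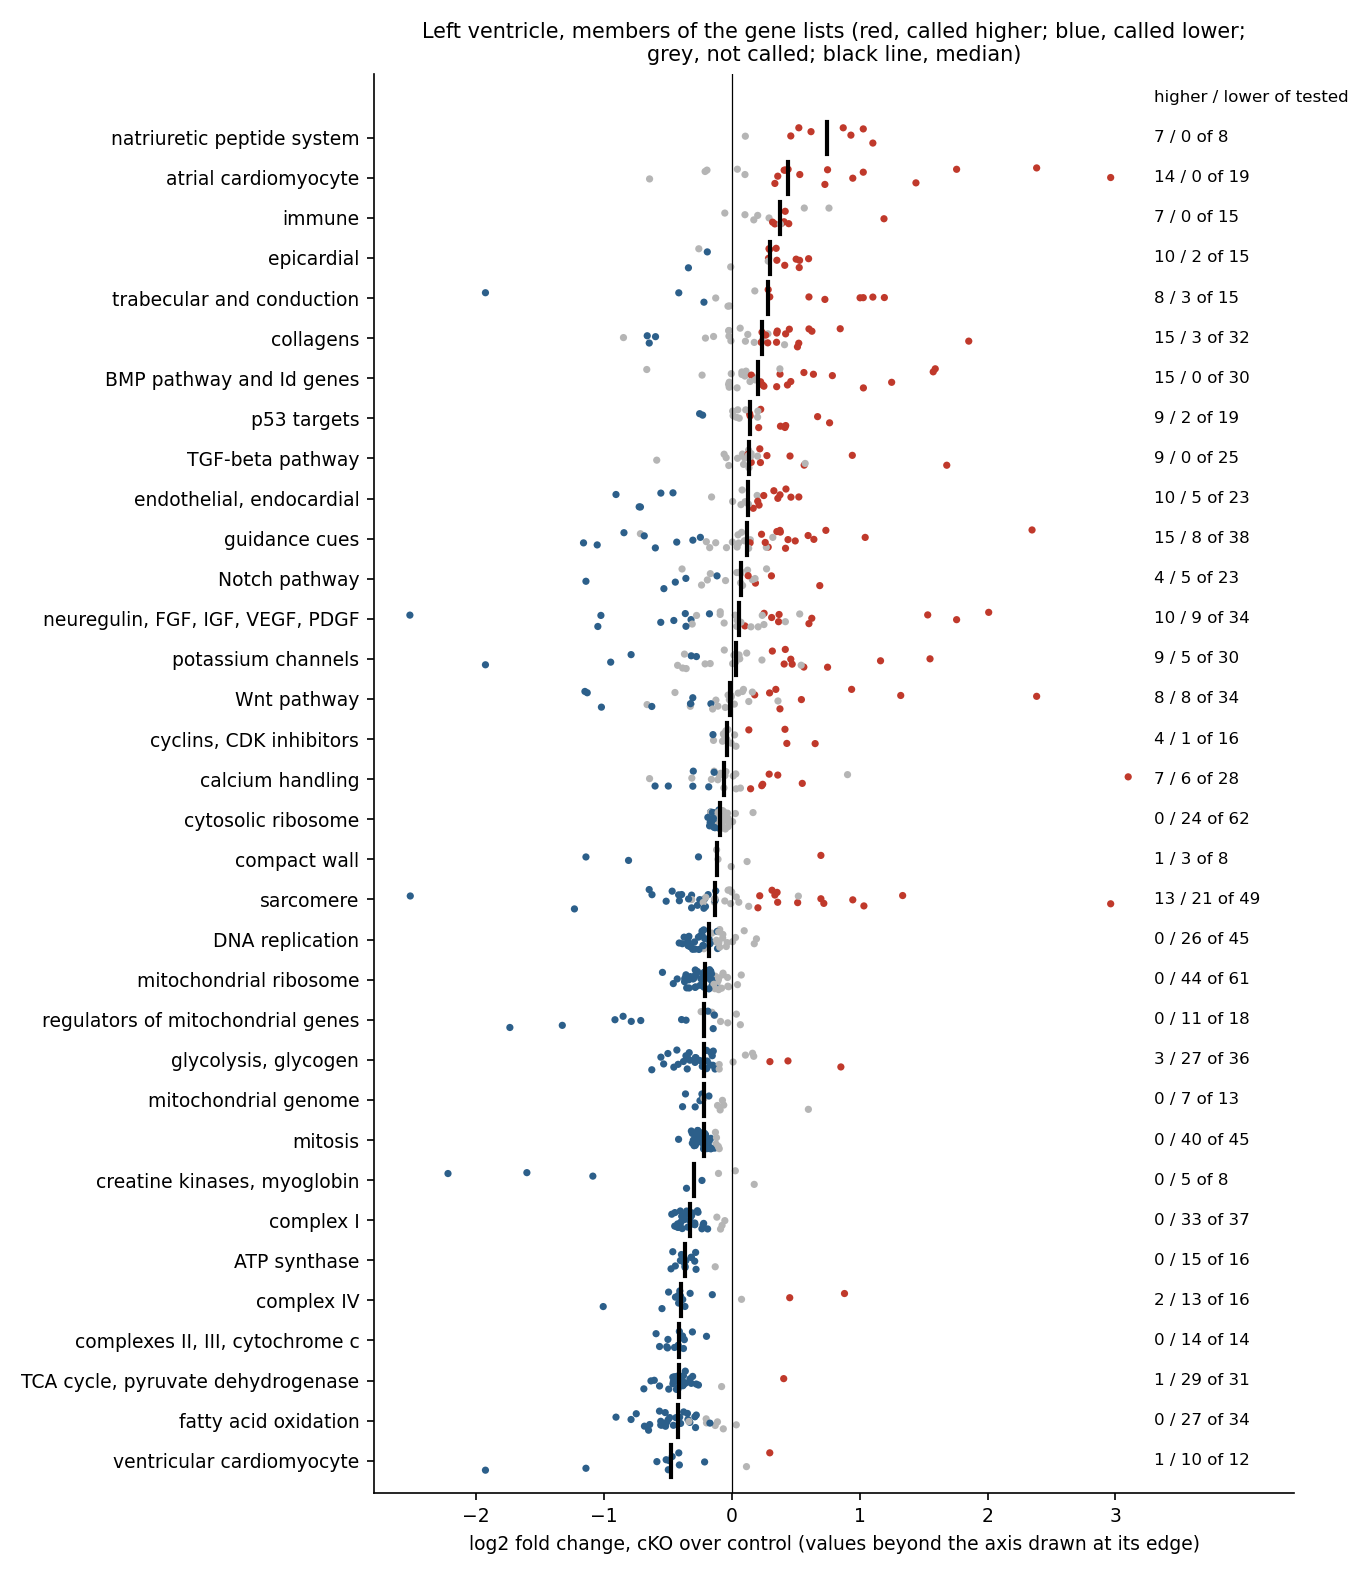
Log2 fold change of cKO over control (x axis) for every tested member of 34 gene lists (y axis, ordered by their median, black line); red members were called higher, blue lower, grey not called, and the numbers give higher and lower calls of those tested. The medians of the metabolic, mitotic and ventricular lists lie to the left of 0 and those of the natriuretic and atrial lists to the right. Some of these lists have members on the other side of 0.

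Genes of other cell types were called too. Epicardial genes, which mark the outer layer of the heart, rose in 10 of 15 cases and fell in 2 (median 0.30), with Wt1, a zinc finger factor of this layer, at 24.3, 23.0, 21.97 and 26.9 TPM in the cKO and 15.5, 16.9, 16.9 and 15.2 TPM in the controls (0.53 ± 0.053 (SE), adjusted p = 1.98e-05) and the retinoic acid enzyme Aldh1a2 also higher (0.60, adjusted p = 0.000451). Not every epicardial marker rose: of the 5 summed above, 4 were called higher and 1 lower. The marker that fell was Tbx18, with TPM that overlapped between groups. It was at 14.1, 15.2, 14.5 and 16.4 TPM in the cKO and 16.4, 15.9, 15.0 and 18.2 TPM in the controls. Endothelial and endocardial genes divided. Of 23, 10 rose and 5 fell. Higher were, among others, the pan-endothelial Tie1 (0.33, adjusted p = 0.000111), Tek (0.36, adjusted p = 6.98e-06) and Pecam1 (0.21, adjusted p = 0.000521) and the endocardial Npr3. Lower were Fabp4, a fatty acid carrier (44.7 ± 6.59 to 24.7 ± 8.56 TPM; -0.91, adjusted p = 0.00183), Apln, the ligand apelin (-0.71, adjusted p = 0.00145), its receptor Aplnr (-0.56, adjusted p = 0.00352), the tight junction protein Cldn5 (-0.72, adjusted p = 0.00236) and Sox17 (-0.46, adjusted p = 0.0404). Sox17 lay at 0.053 on length-scaled counts and turned sign on both TPM scales too, and lost its call, in the same direction, under 14 of 24 alternatives. On log2(TPM + 1) 2 of the list fell. Collagens rose in 15 of 32 cases and fell in 3. The basement membrane chains Col4a1 (0.35, adjusted p = 0.000169), Col4a2 (0.51, adjusted p = 8.37e-06) and Col4a5 (0.52, adjusted p = 7.25e-06) and the fibrillar Col1a1 (0.45, adjusted p = 0.0143) rose, Col3a1 did not pass the test (-0.0072, adjusted p = 0.973), and Col15a1 of vessels and muscle fell (-0.65, adjusted p = 0.0136). Col15a1 lost its call under 6 of 24 alternatives. Immune genes rose in 7 of 15 cases, led by Lyz2, a lysozyme of macrophages (48.6 ± 13.7 to 113 ± 17.1 TPM; 1.19, adjusted p = 0.000351), a count that was 3 without either pair of cKO libraries and without cKO library 1, cKO library 2, control library 1 or control library 3 alone.

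Erythroid genes varied within groups: 3 of 14 were higher and 1 lower, and without cKO libraries 2 and 4, of which library 2 held the least haemoglobin of the cKO, 11 were higher. Without cKO libraries 1 and 3 the calls of the 3 higher genes were lost. The higher count was 11 without cKO library 2, 6 without control library 4, and 1 without cKO library 3, control library 1 or control library 3. The transferrin receptor Tfrc, which cardiomyocytes use too, was the gene that fell (34.1 ± 2.78 to 19.1 ± 1.99 TPM; -0.87, adjusted p = 5.23e-06). Valve and mesenchyme genes were mostly not called, 5 higher and 2 lower of 25. Neuronal markers were near 0 in all libraries, and the 3 of 7 that fell, Tubb3, Elavl3 and Nefl, stood at 1.88 ± 0.717, 0.417 ± 0.421 and 0.431 ± 0.0761 TPM in the controls. The part that the cell makeup of the samples has in any of the counts above was not tested.

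The protein-coding genes with the largest rises were mostly not on any list. Calr4, a reticulum protein related to calreticulin, was at 8.20, 9.55, 12.6 and 6.41 TPM in the cKO and 0.874, 0.367, 0.331 and 0.0850 TPM in the controls (4.49 ± 0.31 (SE), adjusted p = 1.30e-06). Ntsr1, a neurotensin receptor, was at 7.94, 7.25, 6.22 and 6.96 and 0.209, 0.144, 0.695 and 0.836 TPM (3.80 ± 0.31 (SE), adjusted p = 4.08e-06), while its ligand Nts was among the 20 largest falls (15.1 ± 2.83 to 6.30 ± 1.59 TPM; -1.28, adjusted p = 0.000159). Gdnf, a glial neurotrophic factor, and Gfra2, a receptor of the same ligand family, both rose (3.27, adjusted p = 5.14e-08 and 3.41, adjusted p = 6.29e-06). At higher levels Tmem163, a zinc transporter of vesicles, was at 83.3, 78.7, 82.6 and 86.2 TPM in the cKO and 6.84, 11.6, 11.5 and 11.7 TPM in the controls (2.88 ± 0.074 (SE), adjusted p = 5.60e-10), and Ppp1r1b, the phosphatase inhibitor DARPP-32, at 78.8, 86.9, 78.5 and 76.6 and 17.97, 17.3, 17.7 and 19.2 TPM (2.12 ± 0.048 (SE), adjusted p = 3.15e-10). Ppp1r17, another phosphatase inhibitor (3.27, adjusted p = 8.22e-08), Alox8, a lipoxygenase (3.05, adjusted p = 2.70e-07), Hkdc1, a hexokinase-like protein (2.86, adjusted p = 3.47e-07), and Art1, a muscle ADP-ribosyltransferase (2.47, adjusted p = 4.57e-09), rose too. Tiam2, an exchange factor for Rac (2.25, adjusted p = 1.18e-07), Lrp8, a receptor of reelin (2.53, adjusted p = 6.00e-07), and Cp, ceruloplasmin (2.40, adjusted p = 2.57e-07), were among them. Rgs8, a regulator of G protein signalling (3.29, adjusted p = 1.68e-07), Gnal, a stimulatory G protein subunit (2.23, adjusted p = 2.26e-06), and Prr16 (3.19, adjusted p = 6.01e-08) complete the 20 with genes named before. The call of Gnal was lost on length-scaled counts and on both TPM scales.

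Among the largest falls, Aqp4, a water channel, was at 0.405, 0.578, 0.609 and 0.643 TPM in the cKO and 2.74, 2.97, 3.51 and 3.91 TPM in the controls (-2.57 ± 0.16 (SE), adjusted p = 6.00e-07). Others were Ampd3, an AMP deaminase (-1.79, adjusted p = 9.63e-07), Bdh1, which interconverts ketone bodies (6.95 ± 0.848 to 2.69 ± 0.384 TPM; -1.53, adjusted p = 7.61e-06), and Fbxo40 and Asb11, adaptors of ubiquitin ligases in muscle (-1.65, adjusted p = 2.72e-08 and -1.54, adjusted p = 2.09e-07). Agtr1a, the angiotensin receptor (6.32 ± 0.461 to 2.59 ± 0.990 TPM; -1.47, adjusted p = 3.18e-05) and Zdhhc23, a palmitoyltransferase (-1.67, adjusted p = 2.09e-06), fell too. So did Ybx2, an RNA-binding cold shock protein (-1.55, adjusted p = 1.17e-05), Ky, the kyphoscoliosis peptidase of muscle (-1.48, adjusted p = 3.60e-06) and Epn3, an endocytic adaptor (-1.46, adjusted p = 6.27e-08). Lynx1 (-1.41, adjusted p = 1.62e-05), Ankrd45 (-1.58, adjusted p = 1.16e-05), Sel1l3 (-1.38, adjusted p = 1.70e-05) and Eppk1 (-1.28, adjusted p = 2.63e-05) were also among the 20 largest falls, with Tnni2, Ckm, Kcne1, Mb and Nts.

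Whether the cKO effect differed between the left and the right ventricle was tested in a fit of all 16 ventricle libraries. The cKO effect differed for 236 of 16448 genes (1.43%), with a lower fold change on the left for 160 (0.973%) and a higher one for 76 (0.462%). In the counts Prdm16 itself fell further on the left, a call near the threshold: left minus right was -0.44 ± 0.10 (SE, adjusted p = 0.0404). On the right it was at 3.60 ± 0.309 TPM in the cKO and 5.54 ± 0.883 TPM in the controls (-0.75, adjusted p = 2.96e-06). Its fall on the left was -1.19 in the counts, but -0.85 on length-scaled counts and -0.67 on log2(TPM + 1). Hey2 differed most clearly: on the right it was at 60.8 ± 3.96 TPM in the cKO and 62.4 ± 4.06 TPM in the controls, a log2 fold change of -0.042 (adjusted p = 0.732), and left minus right was -1.10 ± 0.082 (SE; adjusted p = 5.04e-06). Mb fell by less on the right (358 ± 100.1 to 245 ± 21.4 TPM; left minus right -1.07, adjusted p = 0.0241), as did Ckm (304 ± 44.5 to 160.3 ± 14.1 TPM; -1.30, adjusted p = 0.000893) and Aqp4 (-1.58, adjusted p = 0.000844). Ky had a log2 fold change of -0.12 on the right, which did not pass the test there (adjusted p = 0.588; difference -1.36, adjusted p = 0.000967). Igfbp2 did not pass the test on the right either (-0.077, adjusted p = 0.707; difference -0.95, adjusted p = 0.00195). Mycn (-0.65, adjusted p = 0.000654), Irx4 (-0.53, adjusted p = 0.0133), Ppargc1a (-0.58, adjusted p = 0.00176) and Cox7a1 (-0.75, adjusted p = 0.00889) also had the lower fold change on the left. Genes with the larger rise on the left were Gdnf (1.79, adjusted p = 0.0152), Rgs8 (2.10, adjusted p = 0.00429) and Lrp8 (1.56, adjusted p = 0.00485). Others were Nt5e, an enzyme that makes adenosine (2.30 ± 1.08 to 2.79 ± 0.955 TPM on the right, 1.39 ± 0.283 to 5.32 ± 0.380 TPM on the left; 1.78, adjusted p = 0.00657), Pdgfc, a growth factor (1.46, adjusted p = 0.00276), and Acvr1c, an activin receptor (1.38, adjusted p = 0.00657). For Mybphl, Dkk3 and Tbx5 the difference did not pass the test (0.02, 0.26 and -0.17, adjusted p = 0.968, 0.847 and 0.724).

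**Figure D5:**
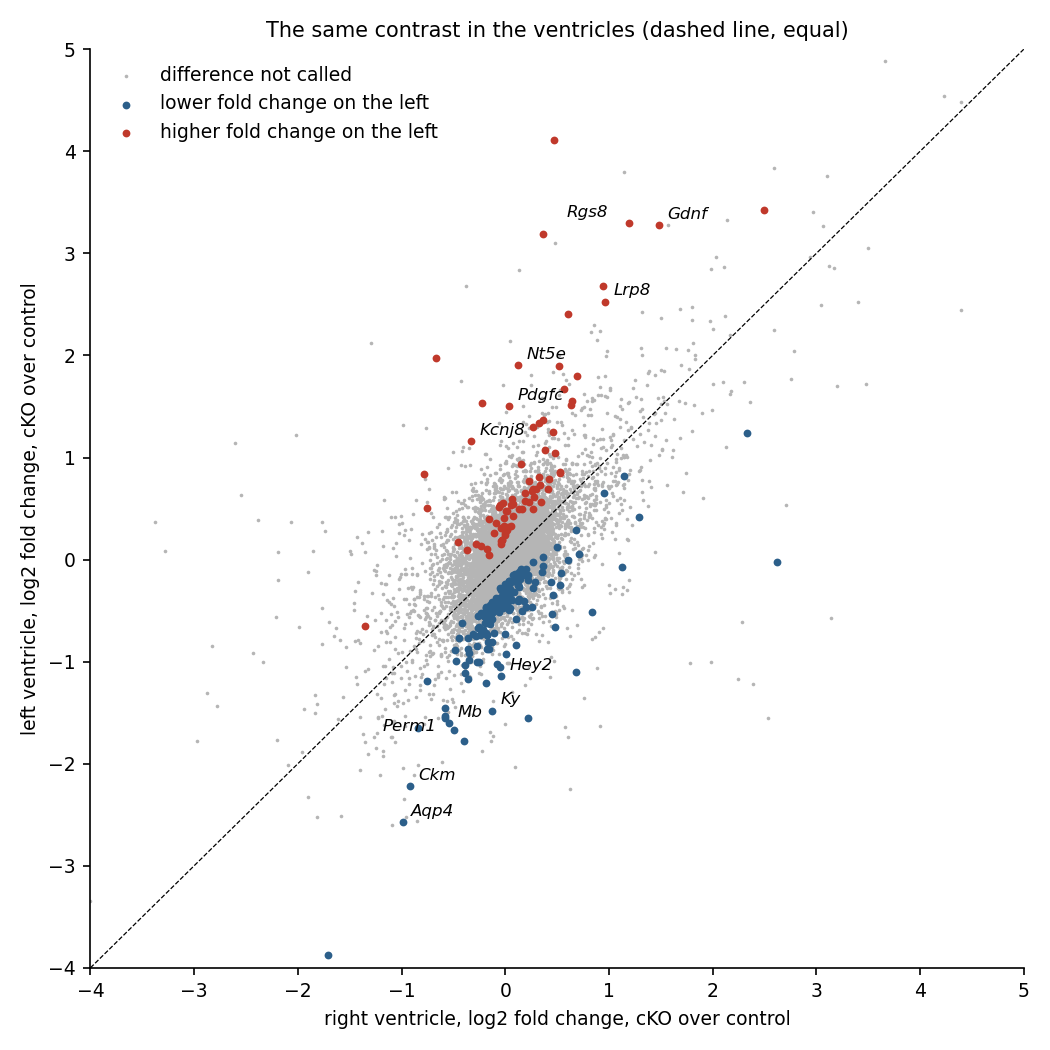
Log2 fold change of cKO over control in the right (x axis) and the left ventricle (y axis) for genes tested in both whose values lie within the axes drawn; blue and red points had a cKO effect that differed between the ventricles, lower or higher on the left, and the dashed line marks equal effects. Right values come from the fit of 16 libraries and left values from the fit of 8. Hey2 lies at -0.042 on the right and -1.14 on the left, and Nt5e at 0.12 and 1.91.

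The count of genes that differed between the ventricles depended on the libraries. It was 75 without left ventricle cKO libraries 2 and 4, 106 without cKO libraries 1 and 3, and 358 without right ventricle control 2, and 57 genes were called on length-scaled counts. Nothing in the labels says which cKO and control libraries came from one litter, or that a library came from a single animal, so the p values measure the spread between libraries.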

How the data were processed

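Left ventricle RNA (TRIzol, RNA integrity number 6.1 to 10, stranded mRNA libraries, Illumina sequencing, per the labels' protocols) was quantified per transcript. Salmon 1.2.1, DESeq2 1.22.2 and GRCm38.p6 are named in the submitters' processing notes. The deposited files hold estimated counts and TPM per transcript as the authors made them. These were summed here to genes with GENCODE M21 (521 of 140658 transcripts unmatched, at most 0.165% of reads), and the counts were rounded. Salmon's effective lengths differ between libraries, which moves TPM but not counts.

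Genes kept by filterByExpr were scaled by TMM and tested with edgeR 4.0.16 (quasi-likelihood, Benjamini-Hochberg, threshold 0.05) on the 8 left ventricle libraries. The ventricles were compared by an interaction term in a fit of 16 libraries. Alternatives used limma 3.58.1 and DESeq2 1.42.0. The fit was tested on simulated data with 200 changed genes. Promoters came from RefSeq. No term for sex was fitted.

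The libraries and gene lists were chosen with earlier results of these data known. Genes were named by rule: 16 fixed genes, the 6 smallest p values per list and members called against their list, the 20 largest changes in each direction (protein-coding, mean of at least 2 log2 CPM, no overlap), 20 of other biotypes and 10 in each direction of the difference between ventricles. Other names, such as genes that did not pass the test, were chosen after their values were seen. A few genes that the rule names are not reported here.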

Additional observations from a re-analysis of the deposited data

Results flagged for a closer look

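In 34 of 526 groups of 4 left ventricle libraries 1 library lay far from the other 3, and chance gives this in about 1 of 20 groups. High values were seen for Abcc9 in control library 2 (24.1 TPM, the others 20.1 to 20.4) and Bmp4 in control library 4 (25.03 TPM, the others 5.90 to 6.16). A single high library was found for Calr in cKO library 1 (726 TPM, the others 647 to 653) and Ccnd2 in control library 3 (103 TPM, the others 80.0 to 83.6). Above the other 3 stood Col15a1 in cKO library 4 (13.8 TPM, the others 4.18 to 5.31) and Dkk2 in cKO library 4 (1.67 TPM, the others 1.21 to 1.27). The same held for Elavl3 in cKO library 3 (0.388 TPM, the others 0.0676 to 0.0943) and Elavl3 in control library 2 (1.04 TPM, the others 0.125 to 0.278). High values were seen for Epha4 in cKO library 1 (21.7 TPM, the others 16.7 to 17.5) and Eppk1 in control library 3 (1.25 TPM, the others 0.887 to 0.937). A single high library was found for Erbb4 in control library 1 (8.21 TPM, the others 4.12 to 4.50) and Fgf12 in control library 4 (0.937 TPM, the others 0.0600 to 0.180). Above the other 3 stood Gata5 in control library 3 (6.73 TPM, the others 6.04 to 6.13) and Hand1 in cKO library 1 (51.2 TPM, the others 35.7 to 36.9). The same held for Jag1 in control library 4 (7.19 TPM, the others 5.94 to 6.08) and Mecom in control library 3 (8.92 TPM, the others 5.85 to 6.15). High values were seen for Mycn in control library 2 (19.2 TPM, the others 16.4 to 16.8) and Mylpf in cKO library 1 (16.3 TPM, the others 6.89 to 7.23). A single high library was found for Npr2 in cKO library 2 (47.9 TPM, the others 39.9 to 40.2) and Nrg1 in control library 1 (2.68 TPM, the others 1.52 to 1.62). Above the other 3 stood Pfkm in control library 4 (71.0 TPM, the others 67.8 to 68.1) and Pfkp in cKO library 1 (112 TPM, the others 84.8 to 86.8). The same held for Rgs8 in control library 4 (0.557 TPM, the others 0.113 to 0.164) and Ryr3 in cKO library 4 (56.2 TPM, the others 21.1 to 23.7). High values were seen for Tnni2 in cKO library 1 (5.92 TPM, the others 2.45 to 2.64) and Uhrf1 in cKO library 2 (49.1 TPM, the others 41.5 to 42.7). Low values were seen for Aldoc in control library 2 (6.46 TPM, the others 8.83 to 9.27) and Casq2 in cKO library 3 (207 TPM, the others 239 to 244). A single low library was found for Gja5 in control library 3 (240.0 TPM, the others 285 to 291) and Kcnj8 in control library 2 (1.54 TPM, the others 2.27 to 2.41). Below the other 3 stood Mki67 in control library 4 (47.1 TPM, the others 50.6 to 51.2) and Myl1 in control library 1 (78.5 TPM, the others 102 to 106). Likewise low were Tmem163 in control library 1 (6.84 TPM, the others 11.5 to 11.7) and mt-Co2 in control library 4 (20370 TPM, the others 21950 to 22130).

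The cKO effect differed between the ventricles, by the interaction term of the edgeR quasi-likelihood fit, for 43 of the genes named. Left minus right on the log2 scale was below 0 for Aqp4 (-1.58, adjusted p = 0.000844), Bdh1 (-0.96, adjusted p = 0.0263) and Bub1b (-0.29, adjusted p = 0.0359). The fold change was lower on the left for Ccnd2 (-0.31, adjusted p = 0.0389), Ckm (-1.30, adjusted p = 0.000893) and Cox6a1 (-0.37, adjusted p = 0.0387). Lower on the left were also Cox7a1 (-0.75, adjusted p = 0.00889), Cpt1b (-0.35, adjusted p = 0.0425) and Eci1 (-0.47, adjusted p = 0.00176). Left minus right on the log2 scale was below 0 for Epn3 (-0.88, adjusted p = 0.00276), Fabp3 (-0.37, adjusted p = 0.0252) and Fbxo40 (-0.81, adjusted p = 0.00375). The fold change was lower on the left for Fhl2 (-0.69, adjusted p = 0.00276), Hey2 (-1.10, adjusted p = 5.04e-06) and Igfbp2 (-0.95, adjusted p = 0.00195). Lower on the left were also Irx4 (-0.53, adjusted p = 0.0133), Jag1 (-0.45, adjusted p = 0.0295) and Kcnk3 (-0.87, adjusted p = 0.00398). Left minus right on the log2 scale was below 0 for Ky (-1.36, adjusted p = 0.000967), Mb (-1.07, adjusted p = 0.0241) and Mdh2 (-0.35, adjusted p = 0.0226). The fold change was lower on the left for Mrpl12 (-0.37, adjusted p = 0.0231), Mycn (-0.65, adjusted p = 0.000654) and Ppargc1a (-0.58, adjusted p = 0.00176). Lower on the left were also Prdm16 (-0.44, adjusted p = 0.0404), Tnni3 (-0.46, adjusted p = 0.00956) and Ybx2 (-0.97, adjusted p = 0.0466). Left minus right on the log2 scale was below 0 for Zdhhc23 (-1.18, adjusted p = 0.00276). Left minus right was above 0 for Acvr1c (1.38, adjusted p = 0.00657), Ankrd1 (1.01, adjusted p = 0.0133) and Cp (1.80, adjusted p = 0.00176). The fold change was higher on the left for Fgf10 (1.75, adjusted p = 0.0375), Gdnf (1.79, adjusted p = 0.0152) and Gja4 (0.54, adjusted p = 0.0389). Higher on the left were also Kcnj8 (1.49, adjusted p = 0.00176), Lrp8 (1.56, adjusted p = 0.00485) and Nt5e (1.78, adjusted p = 0.00657). Left minus right was above 0 for Pdgfc (1.46, adjusted p = 0.00276), Prr16 (2.83, adjusted p = 0.0325) and Rgs8 (2.10, adjusted p = 0.00429). The fold change was higher on the left for Rian (0.58, adjusted p = 0.0263), Ryr3 (0.93, adjusted p = 0.00657) and Slit3 (0.56, adjusted p = 0.0138).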

How the results depend on the processing

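Prdm16 was lower at an adjusted p below 0.05 under all 24 alternatives, and 159 of the 236 called genes named kept their call and direction under all of them. The count of called genes (4626) was 2510 on length-scaled counts, 2380 on log2(TPM + 1), 2371 on log2(TPM + 0.1) and 1246 for a change beyond 1.2-fold. Leaving out 1 library gave 3926 to 4376. Without cKO libraries 2 and 4, an alternative chosen after seeing the data like that without 1 and 3, it was 3037. Of the called genes named, 60 lost the call for a change beyond 1.2-fold, 28 on length-scaled counts, 33 on log2(TPM + 1), 21 without cKO libraries 2 and 4 and 14 without 1 and 3, not counting those that reversed. Sox17 reversed to 0.053 on length-scaled counts, 0.085 on log2(TPM + 1) and 0.12 on log2(TPM + 0.1), and Gabpa to 0.015 on both TPM scales, and none of these values passed the test. The cause was not tested. The count of genes that differed between ventricles (236) was 467 with DESeq2, 414 with limma voom, 57 on length-scaled counts, 46 and 27 on log2(TPM + 1) and log2(TPM + 0.1), 75 without cKO libraries 2 and 4 and 106 without 1 and 3. Leaving out 1 library gave 125 to 358. The difference between ventricles reversed for Ccnd2 (0.075 on length-scaled counts, 0.16 on each TPM scale) and for Hkdc1 (1.37 on log2(TPM + 1)). The mitochondrial share of reads (cKO minus control) was -1.04 to -0.812 percentage points with 1 library left out, each at an exact permutation p of 0.0571, the smallest possible there. It was -0.859 without cKO libraries 2 and 4 and -0.999 without 1 and 3 (exact permutation p = 0.133 for both). With the replicate number as a block 4558 genes were called in the left ventricle and 225 differed between ventricles. Same-numbered libraries correlated by 0.024 to 0.10 in their deviations, and differently numbered ones by -0.11 to 0.045. The labels name no pairs, so the numbers were not taken as pairs, and the block is given here only. Whether same-numbered libraries share a litter or a batch was not tested.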

Other observations

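Imprinted genes were looked at after their values were seen. In the left ventricle the maternally expressed noncoding genes Meg3 (0.44, adjusted p = 3.81e-06), Rian (0.53, adjusted p = 7.06e-06) and Mirg (0.45, adjusted p = 0.00469) and the paternally expressed Dlk1 (0.48, adjusted p = 1.07e-05) of the same cluster were higher in the cKO, as were Peg3 (0.52, adjusted p = 1.87e-06), Mest (0.53, adjusted p = 0.000164) and Plagl1 (0.30, adjusted p = 0.000984). Grb10 was lower (-0.18, adjusted p = 0.000897), and Igf2 (0.039, adjusted p = 0.424) and H19 (-0.055, adjusted p = 0.305) did not pass the test.

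A few features separated the cKO libraries from each other. A second entry named Nnt held 1326, 0, 1704 and 0 reads in cKO libraries 1 to 4 and 734, 2322, 1055 and 3052 in the controls, and AY036118 held 244 and 273 reads in cKO libraries 2 and 4 and 0 in the other 6. Pseudogenes took 0.845%, 0.658%, 0.735% and 0.563% of the reads in cKO libraries 1 to 4 and 0.773%, 0.721%, 0.774% and 0.780% in control libraries 1 to 4. In this share cKO libraries 2 and 4 lay below every control, library 1 lay above every control and library 3 lay within their range. The part that this split of the cKO libraries has in the differences from the controls was not tested beyond the counts without each pair.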
